A study of Mus musculus with 4 samples.

Results

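Disease-associated microglia genes were examined as 9 genes chosen by name, *Spp1*, *Igf1*, *Csf1*, *Clec7a*, *Itgax*, *Axl*, *Gpnmb*, *Lpl* and *Cst7*. All 9 were found among the 33981 genes of the joined tables, each under a single Ensembl identifier. RNA sequencing of poly(A) RNA covered 24 libraries, 6 in each of 4 groups, from a coronal section of brain that held the prefrontal cortex. All mice were male C57BL/6J, aged 3 to 5 months. NT + Sham mice (normotensive) received vehicle for 28 days and sham surgery on day 7, and NT + Stroke mice received vehicle and a photothrombotic stroke on day 7, in which light activates a dye and clots the cortical vessels. HT + Sham mice (hypertensive) were infused under the skin with angiotensin II (daily dose 0.28 mg/kg) and had sham surgery, and HT + Stroke mice had the same infusion and a photothrombotic stroke. Tissue was taken on day 28. The 6 numbered libraries of a group were taken to be 6 mice. The labels do not tie the numbers to animals, so P-values measure the spread between these libraries. The total count was 15922919 to 24865998 per library.

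Microglia are the resident macrophages of the brain. Around amyloid plaques, dying neurons and demyelinated tissue they pass into a disease-associated state, in which genes for phagocytosis, lysosomes and lipid handling are turned on and genes of the homeostatic state, such as *P2ry12* and *Tmem119*, are lowered. The later part of that change depends on the lipid receptor TREM2 and its adaptor TYROBP. *Spp1* encodes osteopontin, a secreted ligand of CD44 and integrins. *Igf1* encodes insulin-like growth factor 1, and *Csf1* encodes a ligand of the receptor CSF1R on which microglia depend. *Clec7a* encodes Dectin-1, a receptor for beta-glucan that signals through SYK. *Itgax* encodes CD11c, an integrin alpha chain that pairs with the beta chain of *Itgb2*. *Axl* encodes a receptor tyrosine kinase that binds GAS6 and helps to clear dying cells, and *Gpnmb* encodes a membrane glycoprotein of phagocytes. *Lpl* encodes lipoprotein lipase, which releases fatty acids from lipoproteins, and *Cst7* encodes cystatin F, an inhibitor of lysosomal cysteine proteases. Several of these genes are not restricted to microglia, and *Axl*, *Csf1*, *Igf1*, *Lpl* and *Spp1* are also made by other brain cells. In bulk tissue, more cells of a type and more RNA per cell cannot be told apart.

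Promoter sequences are shown for the 4 genes whose windows held TGANTCA, used here as a loose form of the AP-1 motif of FOS and JUN proteins. Any middle base was allowed, and it was C in *Gpnmb*, G in *Itgax*, T in *Cst7* and A in *Igf1*. RefSeq promoter windows, from 250 bases before to 50 bases after a start site, were at hand for 8 of the 9 genes (10 windows, build GRCm38.p6). The motif was present, on either strand, in 4 of the 10 windows, those of *Cst7*, *Gpnmb*, *Itgax* and *Igf1*, and in 7.81% of all 32851 windows. GAGGAAG, the core letters of the PU.1 motif of myeloid cells, occurred in 3 of the 10 windows and in 13.6% of all windows. The 3 were 1 window each of *Spp1*, *Axl* and *Igf1*. The E-box CACGTG occurred in 0 member windows and in 7.15% of all windows. These matches describe letters only, and binding was not measured. The stretch from 100 bases before to 29 bases after the start site is given for the 4 genes with TGANTCA, on the strand of the gene and with motif letters in capitals. The capitals are TGANTCA matches, and in *Igf1* also GAGGAAG.
Cst7, chr2:150570315-150570444, plus strand: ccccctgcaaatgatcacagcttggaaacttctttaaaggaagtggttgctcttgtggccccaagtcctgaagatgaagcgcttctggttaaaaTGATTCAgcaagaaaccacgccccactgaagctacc
Gpnmb, chr6:49036418-49036547, plus strand: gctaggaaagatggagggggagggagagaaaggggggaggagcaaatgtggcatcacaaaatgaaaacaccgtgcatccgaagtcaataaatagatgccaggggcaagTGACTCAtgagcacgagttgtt
Itgax, chr7:128129450-128129579, plus strand: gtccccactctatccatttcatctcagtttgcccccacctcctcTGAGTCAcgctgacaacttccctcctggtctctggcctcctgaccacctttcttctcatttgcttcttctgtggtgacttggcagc
Igf1, chr10:87861011-87861140, plus strand: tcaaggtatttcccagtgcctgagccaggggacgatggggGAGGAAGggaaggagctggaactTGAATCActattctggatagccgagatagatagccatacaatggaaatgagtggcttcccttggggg
The TGANTCA letters began 6 bases before the start site in *Cst7*, 56 before it in *Itgax* and 37 before it in *Igf1*, and 8 bases after it in *Gpnmb*.

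A total of 3 libraries stood apart from their labels, and they bear on every comparison that holds an HT group. A scale was built from 712 other genes that were over 2-fold higher in NT + Stroke than in NT + Sham, with the mean of NT + Sham set to 0 and that of NT + Stroke set to 1. On this scale HT + Stroke libraries 1 and 6 lay at 0.105 and 0.188, near the other HT + Sham libraries (0.00978 to 0.168) and below the other HT + Stroke libraries (0.666 to 1.45). HT + Sham library 6 lay at 0.644, close to NT + Stroke library 4 at 0.722. The tissue block also varied. Summed olfactory bulb markers ranged from 63.6 to 781 CPM (counts scaled to library size), highest in HT + Sham library 6, and summed striatal markers ranged from 166 to 1926 CPM, lowest in HT + Sham library 6. The cause was not tested. No library was removed from the main tests, and results without the 3 libraries stand beside them. These libraries were picked after their values were seen, so results without them are a description.

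**Figure D1:**
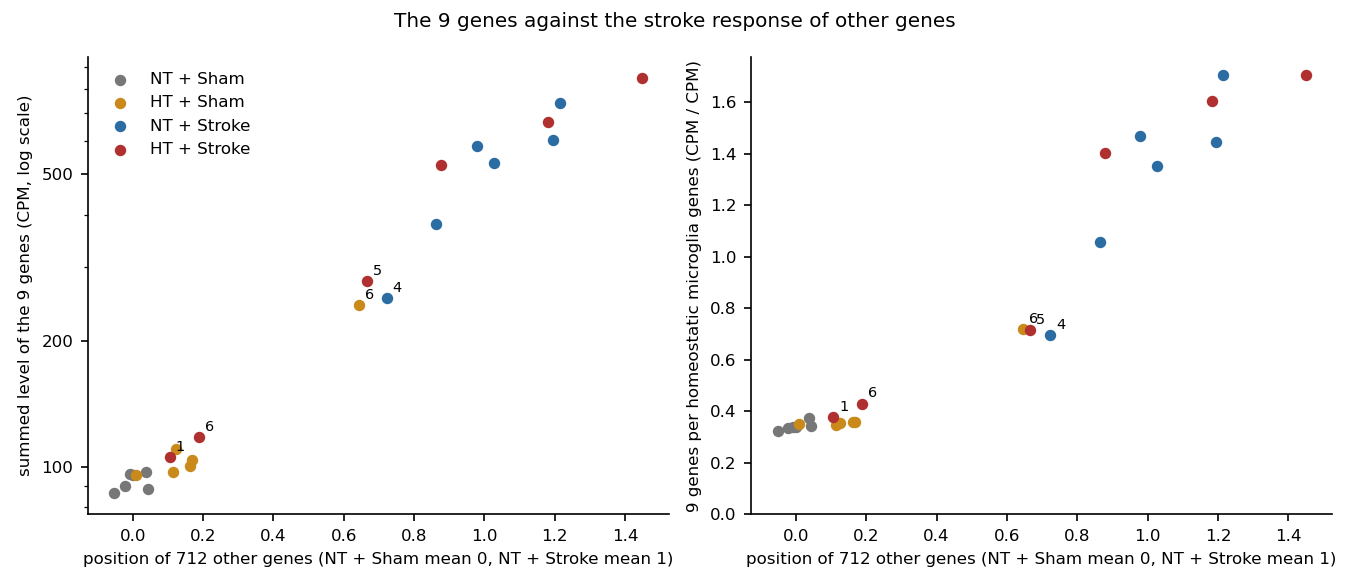
Each point is 1 library. The horizontal axis is the mean log2 level of 712 other genes, scaled so that NT + Sham averages 0 and NT + Stroke averages 1, and the vertical axes are the summed CPM of the 9 genes (left, log scale) and that sum divided by the summed CPM of 12 homeostatic microglia genes (right). Numbers mark HT + Sham library 6, HT + Stroke libraries 1, 5 and 6 and NT + Stroke library 4. HT + Stroke libraries 1 and 6 sit at 106 and 118 CPM beside the sham libraries, and HT + Sham library 6 sits at 243 CPM, close to NT + Stroke library 4 (253 CPM) and HT + Stroke library 5 (277 CPM).

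Levels are compared between genes as FPKM (fragments scaled by gene length and library size). In NT + Sham the highest median was that of *Spp1*, at 6.96 FPKM, next to *Axl* at 6.60 FPKM and *Csf1* at 3.59 FPKM. *Spp1* (4.93 to 8.35 FPKM) and *Axl* (5.78 to 6.86 FPKM) overlapped, and both lay above *Csf1* (3.47 to 4.41 FPKM) in every library. *Lpl*, *Gpnmb* and *Igf1* had medians of 1.11, 0.974 and 0.895 FPKM with overlapping ranges. *Clec7a*, *Cst7* and *Itgax* were at 0.101, 0.0980 and 0.0499 FPKM. These last 3 genes had at most 9 counts in any NT + Sham library, and *Cst7* had 0 counts in 1 of the 6. The order of the medians differed after stroke. In NT + Stroke *Spp1* (68.6 FPKM) and *Gpnmb* (38.1 FPKM) were the highest with ranges that overlapped, *Axl* (10.1 FPKM), *Cst7* (9.14 FPKM) and *Clec7a* (8.46 FPKM) had overlapping ranges, and *Csf1* (6.38 FPKM), *Lpl* (5.21 FPKM), *Itgax* (2.87 FPKM) and *Igf1* (2.52 FPKM) followed, with *Lpl* overlapping *Csf1* and *Itgax* overlapping *Igf1*. The highest median was 140 times the lowest in NT + Sham and 27.2 times the lowest in NT + Stroke. *Axl* gave 31.5 ± 2.21% of the summed FPKM of the 9 genes in NT + Sham and 7.96 ± 2.29% in NT + Stroke (SD, n = 6). *Gpnmb* gave 4.76 ± 0.309% and 23.4 ± 4.68%.

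**Figure D2:**
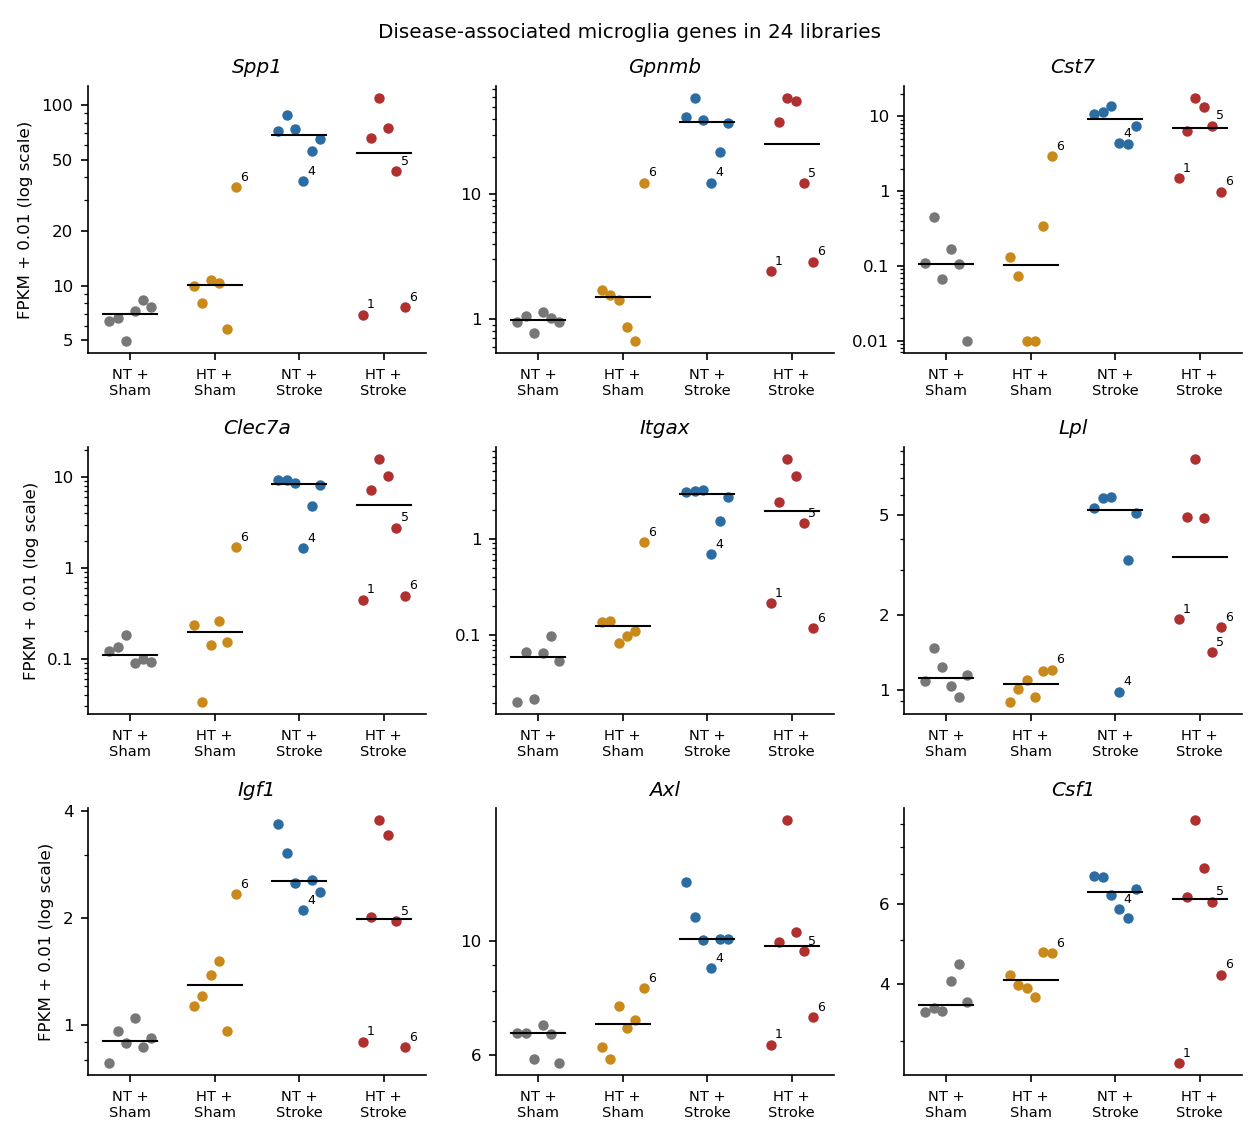
FPKM of each gene in each of the 24 libraries, drawn as FPKM + 0.01 on a log axis, with points in order of library number within a group and a line at the group median. Numbers mark HT + Sham library 6, NT + Stroke library 4 and HT + Stroke libraries 1, 5 and 6. *Spp1* ran from 4.93 to 8.35 FPKM in NT + Sham and from 38.1 to 88.3 FPKM in NT + Stroke, while 2 HT + Stroke libraries stayed at 6.89 and 7.61 FPKM.

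The first comparison asked what stroke did in mice given vehicle. All 9 genes were higher in NT + Stroke than in NT + Sham in the quasi-likelihood test of edgeR (Benjamini-Hochberg adjusted across 16835 genes), where 14.4% of all genes tested were called higher. The median log2 fold change was 3.20 over the 9 genes and -0.01 over all genes tested. The groups did not overlap for 8 of the 9 genes, against 7.47% of all genes tested that were higher without overlap. *Clec7a*, *Itgax* and *Cst7* passed the filter on low counts through the NT + Stroke libraries alone. Their lack of overlap was thus set by the filter and adds no support. The changes were large in the receptors *Clec7a* and *Itgax*, the inhibitor *Cst7* and the glycoprotein *Gpnmb*, intermediate in *Spp1*, *Lpl* and *Igf1*, and below 2-fold in *Axl* and *Csf1*.

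Among the receptors, *Clec7a* (chromosome 6, 129461591 to 129472779, minus strand, listed in the annotation as a polymorphic pseudogene) was at 0.0804 to 0.174 FPKM in NT + Sham, median 0.101. In NT + Stroke it was at 1.63 to 9.26 FPKM, median 8.46. All 6 stroke libraries lay above all 6 sham libraries, and library 4 was the lowest of them. The log2 fold change was 5.92 ± 0.52 (SE, n = 6 per group, edgeR adjusted P = 9.66e-06), the 9th largest of all genes tested. *Itgax* (chromosome 7, 128129547 to 128150657, plus strand) went from 0.0104 to 0.0877 FPKM in NT + Sham (median 0.0499) to 0.683 to 3.16 FPKM in NT + Stroke (median 2.87). The groups were apart again, with a log2 fold change of 5.61 ± 0.50 (edgeR adjusted P = 5.99e-06). *Gpnmb* (chromosome 6, 49036546 to 49070929, plus strand) was at 0.765 to 1.13 FPKM in NT + Sham, median 0.974, and at 12.4 to 58.8 FPKM in NT + Stroke, median 38.1. Its counts were 87 to 141 per sham library and 1964 to 6015 per stroke library, so its log2 fold change of 5.12 ± 0.39 (edgeR adjusted P = 6.30e-06) rested on far more reads than those of *Clec7a*, *Itgax* and *Cst7*. *Axl* (chromosome 7, 25757273 to 25788705, minus strand) was at 5.78 to 6.86 FPKM in NT + Sham and 8.86 to 13.1 FPKM in NT + Stroke, medians 6.60 and 10.1. Its groups did not overlap either, although the log2 fold change was only 0.67 ± 0.08 (edgeR adjusted P = 6.32e-06).

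The lysosomal inhibitor *Cst7* (chromosome 2, 150570415 to 150578944, plus strand) was at 0 to 0.440 FPKM in NT + Sham (median 0.0980) and at 4.30 to 13.8 FPKM in NT + Stroke (median 9.14). Sham libraries held 0 to 8 counts, 16 in all, and stroke libraries 82 to 242. The log2 fold change was 5.82 ± 0.50 (edgeR adjusted P = 2.54e-06), and the plain ratio of mean CPM, with no prior count, gave 5.86 on the log2 scale. NT + Sham library 2 held 8 of the 16 sham counts, and without it the log2 fold change was 6.54 ± 0.53 (range 5.57 to 6.54 with any 1 library left out). *Lpl* (chromosome 8, 68880491 to 68907448, plus strand) behaved differently from the rest. It was at 0.929 to 1.46 FPKM in NT + Sham, median 1.11, and in NT + Stroke 5 libraries were at 3.29 to 5.86 FPKM while library 4 was at 0.974 FPKM, within the sham range. Its log2 fold change was 1.89 ± 0.38 (edgeR adjusted P = 0.00382), and with olfactory bulb and striatal scores as covariates it was 1.49 (adjusted P = 0.237). In the same NT + Stroke library 4 the other 8 genes lay above every sham library other than HT + Sham library 6. That library had the lowest striatal marker sum of its group, 277 CPM against 660 to 1552 CPM.

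Of the secreted ligands, *Spp1* (chromosome 5, 104435118 to 104441050, plus strand) was at 4.93 to 8.35 FPKM in NT + Sham, median 6.96, and at 38.1 to 88.3 FPKM in NT + Stroke, median 68.6. The log2 fold change was 3.20 ± 0.20 (edgeR adjusted P = 5.31e-07). *Igf1* (chromosome 10, 87858265 to 87937042, plus strand) was at 0.774 to 1.04 FPKM and 2.09 to 3.65 FPKM, medians 0.895 and 2.52, with a log2 fold change of 1.53 ± 0.12 (edgeR adjusted P = 9.93e-08). *Csf1* (chromosome 3, 107741048 to 107760469, minus strand) was at 3.47 to 4.41 FPKM and 5.58 to 6.91 FPKM, medians 3.59 and 6.38, with a log2 fold change of 0.70 ± 0.08 (edgeR adjusted P = 3.93e-06). None of the 3 ligands overlapped between the groups. The smallest adjusted P of the 9 genes belonged to *Igf1*, whose change was modest and whose libraries were tightly grouped.

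**Figure D3:**
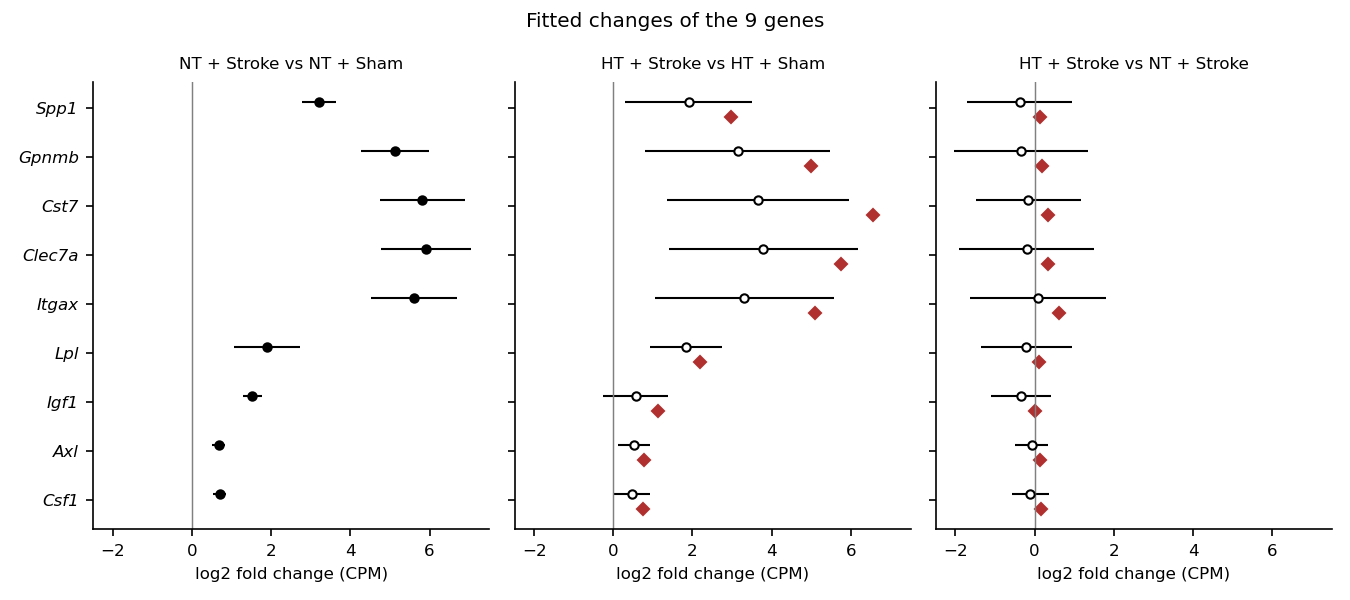
Log2 fold change of each gene in 3 comparisons. Circles are the fits of all libraries with 95% confidence intervals, filled where the adjusted P was under 0.05, and red diamonds are the fits without HT + Sham library 6 and HT + Stroke libraries 1 and 6 (middle) or without HT + Stroke libraries 1 and 6 (right). In NT + Stroke vs NT + Sham the changes ran from 0.67 for *Axl* to 5.92 for *Clec7a*.

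Other genes of the disease-associated state moved in the same direction. Of 25 further genes listed for that state, all 25 were tested, 22 were higher in NT + Stroke and 0 were lower, with a median log2 fold change of 1.36. Those with the smallest adjusted P were *Lgals3bp*, a secreted galectin ligand (1.68 ± 0.11), *B2m*, the light chain of MHC class I (1.06 ± 0.08), *H2-D1*, an MHC class I heavy chain (1.61 ± 0.12), and *Cd63*, a tetraspanin of late endosomes (1.13 ± 0.10, all SE, edgeR). The genes not called were *Ank* (-0.14), *Hif1a* (0.12) and *Fth1* (0.05). The receptor *Trem2* and its adaptor *Tyrobp* were higher by 1.67 ± 0.20 and 1.70 ± 0.19 on the log2 scale (edgeR adjusted P = 6.55e-05 and 3.86e-05), and they are named for their role in this state, outside the rule for named genes and after their values were seen, as are the genes not called and the lower partners.

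Among 26 partners of the 9 genes (receptors, binding proteins, co-factors and targets), 25 were tested, 14 were higher and 2 lower, with a median of 0.68, and 11.5% of all genes were called lower. *Cd44*, a receptor of osteopontin, was higher by 2.32 ± 0.18 on the log2 scale, *Itgb2*, the partner chain of CD11c, by 1.99 ± 0.18, *Ctsc*, a lysosomal protease, by 1.47 ± 0.13, and *Igfbp5*, a binding protein of IGF1, by 1.26 ± 0.11 (edgeR, adjusted P 1.32e-07 to 2.06e-06). The 2 lower genes were *Tyro3*, a relative of AXL (-0.24, adjusted P = 0.0129), and *Il34*, the other ligand of CSF1R (-0.22, adjusted P = 0.0434). *Gpihbp1*, which anchors LPL to capillaries, did not pass the filter.

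Of 12 homeostatic microglia genes, 9 were higher in NT + Stroke and 0 were lower, with a median log2 fold change of 0.42. *Olfml3*, *Fcrls* and *Cx3cr1* were higher by 0.89 ± 0.08, 0.88 ± 0.10 and 0.57 ± 0.08 on the log2 scale (edgeR, adjusted P 2.46e-07 to 2.55e-05). *P2ry12*, the receptor for ADP that marks resting microglia, had a log2 change of 0.05 ± 0.08 (adjusted P = 0.730). *Tmem119* was higher by 0.33 ± 0.10 (edgeR adjusted P = 0.0214). *P2ry12* and *Tmem119* are named for their role in the homeostatic state, outside the rule for named genes. The sum of the 9 genes was 0.322 to 0.372 times the sum of the homeostatic genes in NT + Sham and 0.695 to 1.71 times in NT + Stroke, without overlap. Divided by 9 pan-myeloid genes, of which 9 were higher in NT + Stroke (median log2 fold change 1.19), the same sum was at 0.245 to 0.323 in NT + Sham and 0.445 to 0.805 in NT + Stroke. This sum is weighted towards *Gpnmb* and *Spp1*, at means of 221 and 104 CPM in NT + Stroke, while the log2 fold changes of *Axl* and *Csf1* were below the pan-myeloid median. In the angiotensin II groups the ratio to pan-myeloid genes overlapped, at 0.255 to 0.474 in HT + Sham and 0.257 to 0.797 in HT + Stroke.

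Markers of other cells differed as well. Of 10 markers of border and infiltrating macrophages, 9 were tested and 7 were higher in NT + Stroke, and their sum was 8.02 to 14.4 CPM in NT + Sham and 22.7 to 38.5 CPM in NT + Stroke, beside a pan-myeloid sum of 542 to 1088 CPM in NT + Stroke. Of 6 fibroblast markers 5 were higher (64.1 to 79.1 CPM in NT + Sham and 192 to 739 CPM in NT + Stroke). Of 6 astrocyte markers 5 were higher (1577 to 1815 CPM and 2199 to 2755 CPM), with a median log2 fold change of 0.29. All 6 cortical neuron markers were lower and 4 of 6 olfactory bulb markers were higher. Of 8 lymphocyte markers 4 were tested, with 1 higher and 1 lower, and of 6 neutrophil markers 2 were tested and both were higher. The part of these cells and regions in the results for the 9 genes was not tested.

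The next comparison asked what stroke did in mice given angiotensin II. None of the 9 genes was called in HT + Stroke vs HT + Sham by edgeR, where 0.544% of 16741 genes were called higher, and 8 had an unadjusted P under 0.05, as did 10.5% of all genes on the higher side. All 9 log2 fold changes were above 0, with a median of 1.90 against 0.00069 for all genes tested. DESeq2 called 5 of the 9 higher (3.71% of all genes). The group held both kinds of library. *Gpnmb* was at 2.41 and 2.87 FPKM in HT + Stroke libraries 1 and 6 and at 12.3 to 58.7 FPKM in the other 4, and in HT + Sham it was at 0.657 to 1.70 FPKM in 5 libraries and at 12.4 FPKM in library 6. Its log2 fold change was 3.14 ± 1.05 (SE, edgeR adjusted P = 0.170), with an SE larger than that of 0.39 in the vehicle mice. *Clec7a* had a log2 fold change of 3.79 ± 1.08, *Cst7* 3.65 ± 1.04, *Itgax* 3.31 ± 1.03 and *Spp1* 1.90 ± 0.73 (edgeR adjusted P 0.118 to 0.221).

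*Lpl* was the gene closest to the threshold, at 1.84 ± 0.41 (edgeR adjusted P = 0.0720), and the only one of the 9 without overlap between HT + Stroke (1.40 to 8.34 FPKM) and HT + Sham (0.886 to 1.19 FPKM), against 0.591% of all genes tested. HT + Stroke libraries 1 and 6, low for most of the genes, were at 1.91 and 1.78 FPKM of *Lpl*, above all 12 sham libraries. All 6 striatal markers had log2 fold changes above 0 in HT + Stroke vs HT + Sham (median 1.47). All 6 olfactory bulb markers were below 0 (median -0.88), and 0 markers of either region were called. The part of these regions in the result for *Lpl* was not tested. *Axl*, *Csf1* and *Igf1* had log2 fold changes of 0.52 ± 0.19, 0.47 ± 0.21 and 0.57 ± 0.37. Without HT + Stroke libraries 1 and 6, edgeR called 8 of the 9 genes higher (5.80% of all genes), and without HT + Sham library 6 as well it called 9 (6.81%), with log2 fold changes from 0.75 for *Csf1* to 6.55 for *Cst7*. Leaving out HT + Sham library 6 alone gave 1 call (0.73% of all genes higher), and leaving out HT + Stroke library 1 gave 2 (2.67%). Leaving out HT + Stroke library 5 or 6 gave 1 each (0.948% and 1.57%). In a fit of all 24 libraries 7 were called (4.76% of all genes).

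The 3 libraries that stood apart differed from each other by gene. HT + Stroke library 1 lay above the 11 sham libraries other than HT + Sham library 6 for 5 of the 9 genes and library 6 did so for 4. *Cst7* was at 25 and 15 counts in these 2 libraries against at most 8 in those 11 sham libraries, *Clec7a* was at 20 and 20 counts against at most 11, and *Gpnmb* was at 271 and 291 counts against at most 184. *Spp1* (6.89 and 7.61 FPKM), *Igf1* (0.889 and 0.858 FPKM) and *Axl* (6.27 and 7.11 FPKM) were within the range of those sham libraries. *Csf1* in HT + Stroke library 1 was at 2.68 FPKM, the lowest of all 24 libraries. In HT + Sham library 6, 7 of the 9 genes lay above the other 11 sham libraries. The exceptions were *Lpl* (1.19 FPKM) and *Csf1* (4.68 FPKM), both within their ranges. *Lpl* within the range of those sham libraries, beside raised *Gpnmb*, was thus seen in HT + Sham library 6, NT + Stroke library 4 and HT + Stroke library 5. Their striatal marker sums were 166, 277 and 576 CPM, and HT + Sham library 6 held the highest *Lpl* of its group. A raised *Lpl* beside *Spp1* within its sham range was seen in HT + Stroke libraries 1 and 6, whose sums were 1654 and 1609 CPM. The part of the striatum in these values was not tested.

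Compared with NT + Sham, HT + Stroke was higher for 7 of the 8 genes tested, against 8.38% of 16749 genes. The log2 fold changes were 5.72 ± 1.03 for *Clec7a*, 5.67 ± 0.87 for *Cst7*, 4.80 ± 0.86 for *Gpnmb*, 2.84 ± 0.64 for *Spp1*, 1.70 ± 0.42 for *Lpl*, 1.20 ± 0.33 for *Igf1* and 0.61 ± 0.18 for *Axl* (SE, edgeR adjusted P 0.00836 to 0.0416). *Csf1* had 0.60 ± 0.21 (adjusted P = 0.0769). *Itgax* did not pass the filter on low counts, since fewer than 6 libraries reached the level that the filter needs, and in a fit without that filter it had 5.68 ± 1.11 (adjusted P = 0.0165). The groups did not overlap for 4 of the 9 genes (*Gpnmb*, *Itgax*, *Cst7* and *Clec7a*), against 2.26% of genes tested. Of these, *Itgax* was not tested, and *Cst7* and *Clec7a* passed the filter through the HT + Stroke libraries alone. The lack of overlap of *Cst7* and *Clec7a* was thus set by the filter. Leaving out HT + Stroke library 2 or 4 left 4 calls (4.99% and 4.71% of all genes higher), and leaving out HT + Stroke library 6 gave 9 (9.54%). With the regional scores as covariates 0 of the 9 were called, as were 0% of all genes tested. Without HT + Stroke libraries 1 and 6, all 9 genes were called higher (12.2% of all genes), with log2 fold changes of 0.87 ± 0.11 for *Csf1* and 0.82 ± 0.13 for *Axl*. Of the other disease-associated genes, 19 of 24 tested were higher, among them *Cd52*, *Lgals3*, *Lyz2* and *Tyrobp* (log2 fold changes of 2.59, 6.03, 4.58 and 1.70). Markers of other cells differed too, with 9 of 9 pan-myeloid, 5 of 6 fibroblast and 5 of 6 oligodendrocyte markers higher and 4 of 6 cortical neuron markers lower, and their part in the result was not tested. This comparison, NT + Stroke vs NT + Sham and HT + Sham vs NT + Sham share the NT + Sham libraries.

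The effect of angiotensin II without stroke was compared in HT + Sham and NT + Sham. edgeR called 0 of the 6 genes tested and 0% of all 16581 genes, and DESeq2 called 0 of these genes. At an unadjusted P under 0.05, 3 of the 6 were higher, beside 4.96% of all genes tested. *Igf1* was at 0.952 to 2.32 FPKM in HT + Sham (median 1.29) and 0.774 to 1.04 FPKM in NT + Sham (median 0.895). The groups overlapped in HT + Sham library 5 alone, and the log2 fold change was 0.63 ± 0.17 (SE, edgeR adjusted P = 0.406). Without HT + Sham library 6 it was 0.43 ± 0.12 (edgeR adjusted P = 0.822), and with the regional scores as covariates 0.19 ± 0.19. *Spp1* had 0.94 ± 0.41 and *Gpnmb* 1.66 ± 0.73 (adjusted P = 0.610 and 0.618), which without HT + Sham library 6 were 0.36 ± 0.15 and 0.32 ± 0.20, and with the covariates -0.27 and -0.26. *Axl*, *Csf1* and *Lpl* had 0.09 ± 0.08, 0.14 ± 0.08 and -0.15 ± 0.12. *Itgax*, *Cst7* and *Clec7a* did not pass the filter in this comparison, with at most 11 counts in each sham library other than HT + Sham library 6, which held 86, 56 and 88 counts. In the fit without that filter they had 2.38, 1.98 and 1.91 (adjusted P 0.603 to 0.675).

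The 3 lists of related genes held 0 calls in this comparison. The gene with the smallest P of each list was *Lgals3bp* (0.45 ± 0.18), *Igfbp2*, a binding protein of IGF1 (0.38 ± 0.18), and *Sall1*, a transcription factor of microglia (0.69 ± 0.23, edgeR adjusted P = 0.526, 0.618 and 0.471).

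In the 12 sham libraries, the levels of some of the 9 genes moved with markers of neighbouring regions. Over 18 relations (9 genes against the summed olfactory bulb or striatal markers, log2(CPM + 1)), *Spp1* rose with olfactory bulb markers (Pearson r = 0.910, permutation P = 1e-05, the smallest the 100000 resamples can give, adjusted P = 0.00018, and Spearman rho = 0.958, permutation P = 3e-05, adjusted P = 0.00054). Without the 2 libraries farthest from the median of the markers r was 0.943, within NT + Sham it was 0.981 and within HT + Sham 0.922 (n = 6 each, without a test). *Igf1* had r = 0.877 with the same markers (permutation P = 0.00035, adjusted P = 0.00315, rho = 0.762, permutation P = 0.00603, adjusted P = 0.0543). Without the farthest 2 libraries it was 0.798, within HT + Sham 0.877 and within NT + Sham 0.140, so the relation did not hold within NT + Sham. *Lpl* with striatal markers had r = 0.456 (permutation P = 0.137, adjusted P = 0.1445, rho = 0.594, permutation P = 0.0472, adjusted P = 0.151). Its r was 0.771 within NT + Sham, -0.159 within HT + Sham and 0.695 without HT + Sham library 6. In all, 8 of the 18 had an adjusted permutation P under 0.05 by Pearson's r and 1 by rank. Several of the 8 leaned on HT + Sham library 6. Without it r went from -0.662 to -0.272 for *Gpnmb* with striatal markers, from -0.650 to -0.226 for *Itgax* with striatal markers and from 0.697 to 0.339 for *Clec7a* with olfactory bulb markers, while for *Spp1* with olfactory bulb markers it was 0.959 (n = 11). These relations were examined after the values of HT + Sham library 6 were seen. No such count over all genes is given, so the 8 of 18 cannot be read as particular to these genes.

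**Figure D4:**
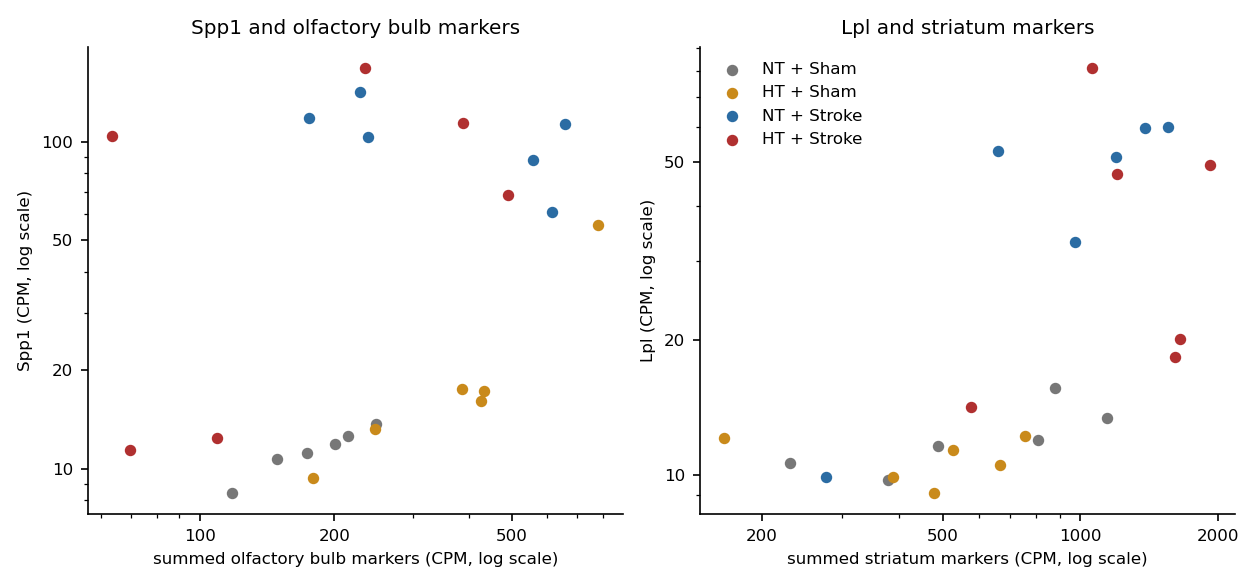
CPM of *Spp1* against the summed CPM of 6 olfactory bulb markers (left) and of *Lpl* against 6 striatal markers (right), log axes, 1 point per library coloured by group. Among the sham libraries *Spp1* rose with the olfactory bulb markers (r = 0.910), and the NT + Stroke library lowest in striatal markers, at 277 CPM, held the lowest *Lpl* of the stroke libraries.

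The effect of angiotensin II after stroke was compared in HT + Stroke and NT + Stroke. None of the 9 genes was called by edgeR or DESeq2, nor was any of 17008 genes by edgeR (0%), and 0 of the 9 had an unadjusted P under 0.05 in edgeR, beside 3.35% of all genes on the higher and 3.89% on the lower side. The groups overlapped for all 9, while 0.0647% of all genes were higher and 0.1% lower without overlap. *Spp1* was at 6.89 to 109 FPKM in HT + Stroke (median 54.5) and 38.1 to 88.3 FPKM in NT + Stroke (median 68.6), and *Axl* was at 6.27 to 17.3 FPKM and 8.86 to 13.1 FPKM. The HT + Stroke libraries were spread below and above the NT + Stroke range for both genes. The log2 fold changes lay between -0.38 (*Spp1*, 95% confidence interval -1.71 to 0.95) and 0.08 (*Itgax*, -1.64 to 1.80). For *Axl* the interval was -0.49 to 0.34 and for *Csf1* -0.58 to 0.36. The intervals of *Gpnmb* (-2.04 to 1.36) and *Clec7a* (-1.91 to 1.50) still hold changes of over 2-fold in either direction. Without HT + Stroke libraries 1 and 6, all 9 log2 fold changes were above 0, from 0.016 for *Igf1* to 0.62 for *Itgax*, and 0 were called. HT + Stroke library 3 had the highest FPKM of all 24 libraries for 8 of the 9 genes, and *Gpnmb* was highest in NT + Stroke library 2.

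Whether the response to stroke differed with angiotensin II was tested as an interaction over all 24 libraries. None of the 9 genes was called by edgeR or DESeq2 (0% of 17608 genes in edgeR), and *Igf1* had an unadjusted P under 0.05, on the lower side, as did 5.88% of all genes. The interaction of *Igf1* was -0.96 ± 0.40 on the log2 scale (95% confidence interval -1.80 to -0.13, edgeR adjusted P = 0.428). All 9 estimates were below 0 with all libraries, from -2.31 for *Itgax* to -0.06 for *Lpl*. Without the 3 libraries that stood apart those of *Axl*, *Csf1*, *Lpl* and *Cst7* were above 0 (0.10, 0.054, 0.30 and 0.74), and 0 of the 9 were called.

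Among the 12 stroke libraries the 9 genes varied together. With each gene centred within its group on log2(CPM + 1), the median Pearson r of a gene with the other 8 was 0.954 for *Itgax*, 0.936 for *Spp1*, 0.926 for *Gpnmb*, 0.925 for *Cst7* and *Clec7a*, and 0.924 for *Igf1*. It was 0.883 for *Csf1*, 0.861 for *Axl* and 0.694 for *Lpl*, the lowest. The pair closest to each other was *Itgax* and *Clec7a*, at 0.990, and *Lpl* was least like *Csf1*, at 0.572. All points share their library, depth and lesion, and HT + Stroke libraries 1 and 6 lie far from the others. Of 15576 other genes that averaged 1 CPM or more, those most like the mean of the 9 were *AU020206* (r = 0.994), *Plin2*, a coat protein of lipid droplets (0.993), *Lox*, a collagen cross-linking enzyme (0.991), *Mpeg1*, a pore-forming protein of macrophages (0.990), and *Abca1*, a transporter that exports cholesterol (0.988). Without HT + Stroke libraries 1 and 6 their r was between 0.976 and 0.989 over 10 libraries.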

How the data were processed

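Poly(A) RNA was sequenced in 24 libraries, 6 in each of 4 groups. The deposited tables hold read counts per gene, which the authors made with featureCounts 1.5.0-p3 according to the submitters' processing notes, and FPKM values, which the authors computed from counts, gene length and library size. The aligner and genome build are not given in the sources used here. The gene positions matched GRCm38 (GENCODE M21) for 97.55% of the 33932 genes found there, including all 9 genes described. Strand setting was not given either, so overlapping antisense transcripts cannot be told apart. A further 48 columns of normalized counts, 8 columns of group means and the authors' own fold changes and P-values were not used. The notes also name DESeq2 1.20.0. The 4 tables were joined by gene identifier, and libraries present in more than 1 table were identical in all 48 comparisons between tables. Total counts were 15922919 to 24865998 per library.

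Counts were tested with edgeR 4.0.16 in R 4.3.3 (filterByExpr with a minimum count of 10 and minimum total of 15, TMM scaling, robust quasi-likelihood test), with 12 libraries per pairwise comparison, 24 for the interaction and Benjamini-Hochberg adjustment over all genes tested at a threshold of 0.05. Alternatives were DESeq2 1.42.0, limma 3.58.1 on log2(FPKM + 1), other scalings and filters, regional covariates, a fit of all libraries and leaving out each library. In simulated data with 6 libraries against 6 and 16581 genes, 86% of 2-fold and 99% of 4-fold changes were called. These rates cannot be carried over to comparisons that hold HT + Sham or HT + Stroke libraries, since no simulation with libraries that stand apart is given. For HT + Sham vs NT + Sham, edgeR did not call *Gpnmb*, at 1.66 ± 0.73 (SE) on the log2 scale. *Itgax*, *Cst7* and *Clec7a* did not pass the filter there, so the rates do not describe them. In HT + Stroke vs HT + Sham, *Gpnmb*, *Itgax*, *Cst7* and *Clec7a* had log2 fold changes of 3.14 to 3.79 (SE 1.03 to 1.08) and were not called by edgeR. In lists, up to 4 called genes with the smallest adjusted P were named, or otherwise the gene with the smallest P. A single gene that this rule names is not reported here. The 9 genes and all lists were chosen with earlier results of these data known. Promoter windows came from RefSeq (GRCm38.p6).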

Additional observations from a re-analysis of the deposited data

Results flagged for a closer look

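In 7 of 36 groups (9 genes in 4 groups of 6 libraries), the highest library lay far from the other 5 by Dixon's criterion. Of these, 5 were HT + Sham library 6, which held *Spp1* at 55.8 CPM (others 9.37 to 17.5), *Gpnmb* at 78.0 CPM (others 4.23 to 10.9), *Itgax* at 4.25 CPM (others 0.347 to 0.622), *Cst7* at 2.77 CPM (others 0 to 0.321) and *Clec7a* at 4.35 CPM (others 0.0622 to 0.676). *Axl* in HT + Stroke library 3 was at 80.9 CPM, against 31.7 to 48.5 CPM in the others of its group. *Cst7* in NT + Sham library 2 was at 0.441 CPM, or 8 counts, against 0 to 0.158 CPM in the others. No share of flagged groups over all genes is given, so the 7 of 36 cannot be read as particular to these genes.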

How the results depend on the processing

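Of 1152 values of single genes under alternatives, 1030 kept their direction and side of the threshold, 39 lost a call, 39 gained one and 44 changed sign. In NT + Stroke vs NT + Sham the number called stayed at 9 when any library was left out (12.8% to 14.6% of all genes higher). In HT + Stroke vs HT + Sham 8 were higher at an unadjusted P under 0.05. The number called higher there was 5 with DESeq2 and 7 with all 24 libraries in 1 fit. It was 8 without HT + Stroke libraries 1 and 6, and 9 without HT + Sham library 6 as well. With 1 library left out it was 0 to 2 (0.0355% to 2.67% of all genes). In HT + Stroke vs NT + Sham the number called higher was 0 with regional covariates (0% of all genes). With 1 library left out it was 4 to 9 (4.71% to 10.4% of all genes). In HT + Sham vs NT + Sham 3 passed an unadjusted P under 0.05, and 1 did so on the lower side of the interaction. The causes were not tested. With regional covariates, HT + Sham vs NT + Sham turned to -0.27 for *Spp1* and -0.26 for *Gpnmb*. HT + Stroke vs NT + Stroke turned to -0.21 for *Itgax* with limma, to 0.11 for *Axl*, 0.075 for *Csf1*, 0.14 for *Cst7* and 0.15 for *Clec7a* with covariates, and without HT + Stroke libraries 1 and 6 to 0.13 for *Axl*, 0.15 for *Csf1*, 0.11 for *Lpl*, 0.016 for *Igf1*, 0.13 for *Spp1*, 0.19 for *Gpnmb*, 0.34 for *Cst7* and 0.33 for *Clec7a*. The interaction turned to 0.16 for *Axl*, 0.068 for *Csf1* and 0.064 for *Lpl* with covariates, to 0.048, 0.024 and 0.27 without HT + Stroke libraries 1 and 6, and to 0.10, 0.054 and 0.30, and 0.74 for *Cst7*, without HT + Sham library 6 as well. With 1 library left out, HT + Stroke vs NT + Stroke ranged from -0.27 to 0.019 for *Axl*, -0.25 to 0.034 for *Csf1*, -0.45 to 0.33 for *Itgax*, -0.53 to 0.075 for *Cst7* and -0.72 to 0.039 for *Clec7a*, and the interaction from -2.88 to 0.25 for *Cst7* and -0.41 to 0.11 for *Lpl*. The tables number the libraries 1 to 6 in each group, but nothing ties a number across groups, and same-numbered libraries deviated together (r over 0.1) in only 2 or 3 of 6 pairs per comparison. A replicate block by that number, added after seeing the data, left the 9 calls of NT + Stroke vs NT + Sham (15.4% of all genes higher). It gave 4 in HT + Stroke vs NT + Sham (3.34%) and 0 in each other comparison (0% to 0.239%). The block turned *Itgax* in HT + Stroke vs NT + Stroke to -0.48. Between 2 and 5 of 12 libraries per comparison correlated best with their own number. With at most 9 counts per NT + Sham library, the fold changes of *Clec7a*, *Cst7* and *Itgax* are limited by depth.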
